A study of Mus musculus with 6 samples.

Results

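The genes described here are 45 genes of the dividing cell: 16 that act in S phase, when DNA is copied, and 29 that act in mitosis, when the copies are separated. They were chosen by gene symbol, all 45 were found once among the 56884 genes of the files, and none was left out for a low level. Levels were read in 6 single-cell libraries, 1 for each group. The Bdnf control and Bdnf iPCKO libraries and the Hgf control and Hgf iPCKO libraries were lungs of mice at postnatal day 21 depleted of CD45- and Ter119-positive cells, and the Nodal control and Nodal iPCKO libraries were cerebral cortex at postnatal day 12 freed of meninges and myelin debris. iPCKO mice carried lox/lox alleles of the named gene and the Pdgfrb(BAC)-CreERT2 transgene, which acts in pericytes and smooth muscle cells, and controls carried the same lox/lox alleles without CreERT2. All mice received 50 µg tamoxifen on each of the days 1 to 3 after birth, and each library pooled cells of 2 mice. With 1 library a group there is no replicate and no test: every interval below is a 95% interval of counting error alone, and it says nothing of the difference between 2 litters or 2 preparations. Intervals of levels and of their ratios take each UMI as independent. In several lineages a few cells held many of the list UMIs, so these intervals also leave out which cells were captured.

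A cell that divides loads the MCM helicase on its DNA, copies it with the help of the sliding clamp PCNA and of enzymes that supply deoxynucleotides, and then condenses and separates the chromosomes under the control of CDK1 with cyclins A2, B1 and B2. Transcripts of the first group build up from late G1 under E2F factors, and those of the second group build up in G2 through the CHR element, which binds the MuvB complex, often next to CCAAT boxes, which bind NF-Y. In the young lung and cortex these genes are read as signs of growth of vessels, epithelium and glia.

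To show what the 2 groups share in sequence, a stretch of 120 bases shortly before the annotated start is shown for 4 mitosis members and 3 S phase members with many UMIs (Top2a, Cdk1, Ube2c and Mki67, then Mcm6, Rrm1 and Mcm4). They were read from GRCm39, the build of the files, on the strand of the gene and 5′ to 3′. Capitals mark matches on either strand. The CHR element was searched as TTTGAA or, with a single base changed, as TTCGAA. The NF-Y box was searched as CCAAT, which reads ATTGG on the other strand. For E2F the first word searched was TTCGCGC, the next one was TTGGCGC, a further one was TTCCCGC, and the last of them was TTGCCGC. Words may overlap, as in Ube2c and Mcm6.
Top2a, chr11:98915063-98915182, minus strand: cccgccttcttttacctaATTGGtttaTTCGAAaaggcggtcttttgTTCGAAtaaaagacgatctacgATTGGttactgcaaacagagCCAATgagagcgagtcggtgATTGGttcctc
Cdk1, chr10:69188773-69188892, minus strand: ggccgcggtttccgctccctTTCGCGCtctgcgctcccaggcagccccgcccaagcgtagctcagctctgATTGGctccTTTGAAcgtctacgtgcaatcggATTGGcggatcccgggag
Ube2c, chr2:164611648-164611767, plus strand: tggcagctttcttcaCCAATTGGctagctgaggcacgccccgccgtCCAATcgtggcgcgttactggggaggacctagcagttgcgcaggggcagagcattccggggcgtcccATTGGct
Mki67, chr7:135318300-135318419, minus strand: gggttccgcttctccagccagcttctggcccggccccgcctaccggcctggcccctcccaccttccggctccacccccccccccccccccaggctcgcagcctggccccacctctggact
Mcm6, chr1:128287517-128287636, minus strand: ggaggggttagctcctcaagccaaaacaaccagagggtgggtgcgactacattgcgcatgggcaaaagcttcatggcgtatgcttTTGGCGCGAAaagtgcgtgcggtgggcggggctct
Rrm1, chr7:102090770-102090889, plus strand: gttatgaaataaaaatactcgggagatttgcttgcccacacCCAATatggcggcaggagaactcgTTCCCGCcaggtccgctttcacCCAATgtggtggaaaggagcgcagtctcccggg
Mcm4, chr16:15455265-15455384, minus strand: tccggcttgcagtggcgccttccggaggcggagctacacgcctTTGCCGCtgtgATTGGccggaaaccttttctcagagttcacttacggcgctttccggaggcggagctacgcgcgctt

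In the window from 250 bases before to 50 bases after the start, a CHR word lay in 18 of 29 mitosis members (62.1%) and 2 of 16 S phase members (12.5%), against 18.8% of all 21770 protein-coding genes. An E2F word lay in 5 mitosis members (17.2%) and 9 S phase members (56.2%), against 11.2% of all genes. A CCAAT box was frequent in both groups, in 20 (69.0%) and 10 (62.5%) members, against 39.9%. The pair of CHR and CCAAT box was found in 51.7% of mitosis members and 12.5% of S phase members, against 8.25% of all genes. These are matches of letters in a fixed window and not measured binding, and the Mki67 stretch above held none of them. The 45 genes lay on 17 chromosomes. Another annotated gene overlapped 26 of them, 11 on the same strand and 21 on the other. Multi-mapping reads leave fractions in the counts, and the fractional part of a member's UMIs, a lower bound of their share, was highest for Tyms with 5.12%, Nusap1 with 4.26% and Mcm7 with 3.65%.

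Barcodes with at least 1500 UMIs (unique molecular identifiers, 1 per captured transcript), or at least 700 in the Hgf libraries, were read as cells. In every pair of values below the control comes first. Such barcodes numbered 17154 and 24311 for Bdnf, 14622 and 16155 for Hgf, and 3237 and 5008 for Nodal, with a median of 2841 to 7792 UMIs. Each barcode was given the lineage with the highest score of its own markers, named "-like", and barcodes between cell types were kept. In 16.7 and 23.8%, 12 and 16.6%, and 5.10 and 4.91% of barcodes the score of a second lineage reached 0.5 of the best. The libraries of a pair shared 457, 254 and 21 barcodes, against 457, 259 and 17.8 expected by chance. The largest excess as a ratio was between Nodal iPCKO and the Hgf libraries, with 108 and 116 against 80.2 and 88.6. The targeted gene was read in mural-like cells as a check of labels. Bdnf was at 84.5 and 42.8 UMIs per 1000000 UMIs (CPM) in smooth muscle-like and 21.7 and 15.7 CPM in pericyte-like cells. The pericyte-like values rested on 19 and 14 UMIs, with overlapping intervals of 13.1 to 33.9 and 8.58 to 26.3 CPM. They therefore do not show a loss of Bdnf in pericyte-like cells. Hgf in pericyte-like cells was at 119.5 and 21.6 CPM, and Nodal at 94.8 CPM and 0 of 481 cells.

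The summed level of the list is the CPM of all members together in the same cells. Over all cells it was 518 and 515 CPM in the Bdnf lungs, 404 and 569 CPM in the Hgf lungs and 1074 and 1190 CPM in the Nodal cortex. Barcodes with under 200 UMIs, which hold mostly free RNA, had 445 and 498, 362 and 516, and 1214 and 1305 CPM of the same genes. Free RNA thus carried the list at about the level of all cells, and its part in the levels of single lineages was not tested. In the Hgf and Nodal pairs cells and nearly empty barcodes were both higher in iPCKO, whereas in the Bdnf pair only the nearly empty barcodes were.

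**Figure D1:**
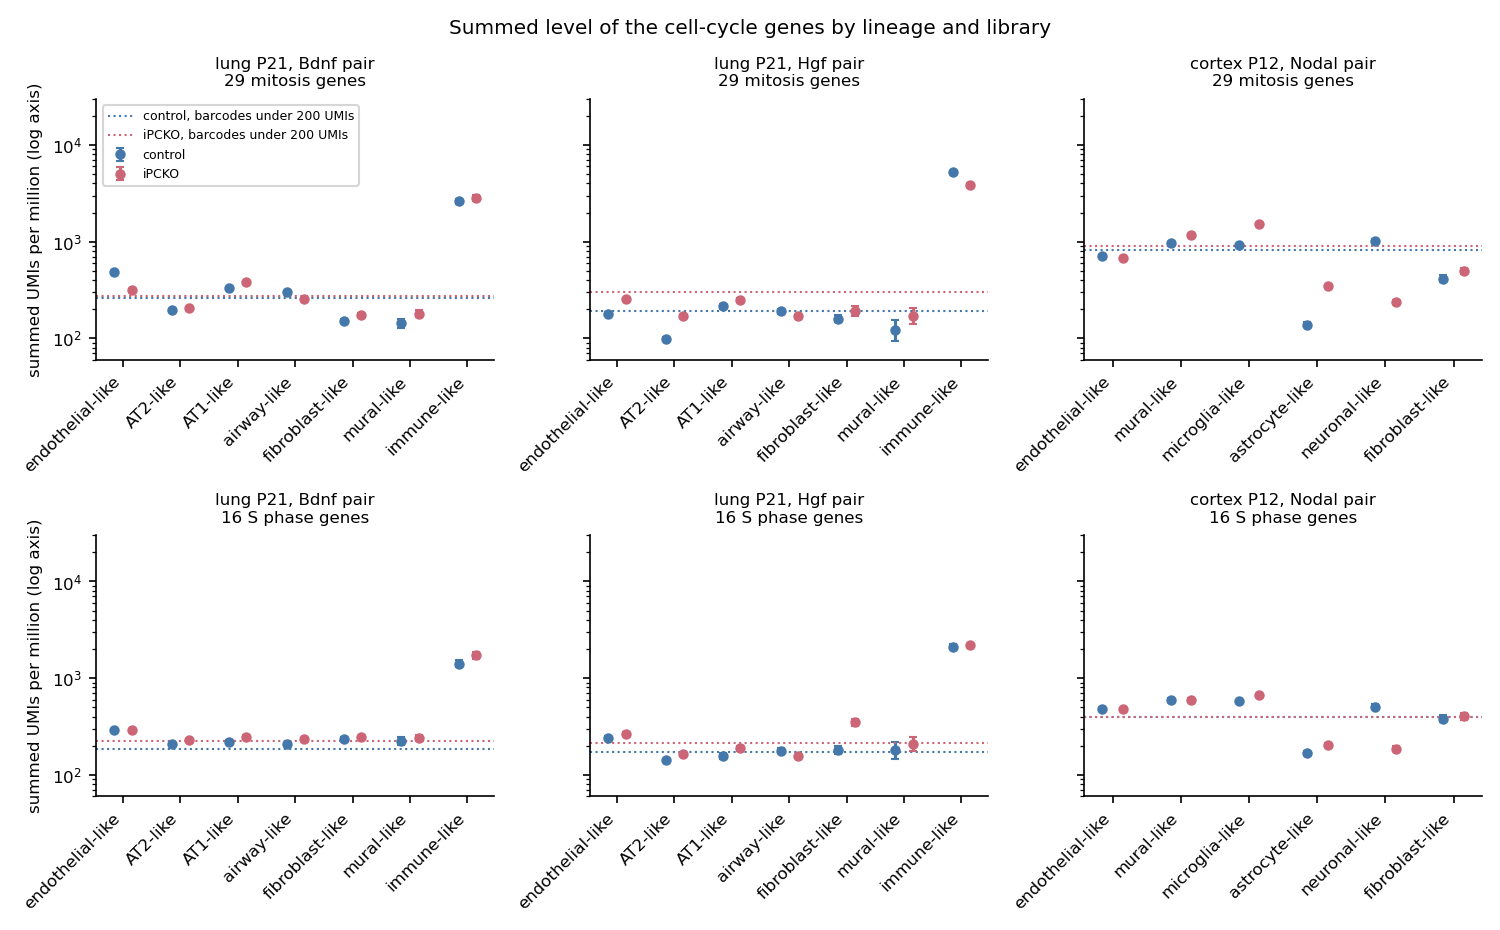
Summed level of the 29 mitosis genes (top) and the 16 S phase genes (bottom) in CPM on a log axis, by lineage, for the Bdnf and Hgf lungs and the Nodal cortex. Points are single libraries with exact Poisson 95% intervals, blue control and red iPCKO, and dotted lines give the level in barcodes under 200 UMIs. The mitosis level of Bdnf endothelial-like cells was 490 CPM in control and 313 CPM in iPCKO, and immune-like cells lay above the other lung lineages plotted.

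A second reading counts cells that hold many list UMIs at once. Every barcode was thinned to 1500 UMIs (700 in the Hgf libraries), and one with at least 5 list UMIs left was called list-rich. After thinning, 5 list UMIs stand for a level of about 3333 CPM, or 7143 CPM in the Hgf libraries. The shares of the Hgf pair are therefore not comparable with those of the other pairs. Thinning is a random draw, so barcodes whose level before thinning was lower were also called. List-rich barcodes were 134 (0.781%, Clopper-Pearson interval 0.655 to 0.925%) and 182 (0.749%, 0.644 to 0.865%) in the Bdnf lungs. They were 44 (0.301%) and 63 (0.390%) in the Hgf lungs, and 164 (5.07%) and 336 (6.71%) in the Nodal cortex. Without thinning the shares were 24.2 and 18.9%, 4.32 and 6.26%, and 31.4 and 38.9%, where the number of UMIs per barcode also enters. Near the limit, 104 and 233 Bdnf barcodes had exactly 4 list UMIs and 38 and 70 exactly 5. In the Nodal libraries these were 45 and 85 with 4 and 22 and 46 with 5.

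The distribution per barcode had a steep fall and then a long flat tail. At the higher limit of 10 UMIs, set after the data had been seen, 72 and 54 Bdnf, 24 and 24 Hgf and 95 and 214 Nodal barcodes were left. The tail therefore held more Bdnf control than Bdnf iPCKO barcodes, and more Nodal iPCKO than Nodal control barcodes. Outside list-rich barcodes 2 genes made up much of the list. Pcna and Smc4, a subunit of the condensin complexes that compact chromosomes, supplied 47.7 to 63.0% of the list UMIs of the other barcodes in the 6 libraries, and 12.3 to 19.4% of those in list-rich barcodes.

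**Figure D2:**
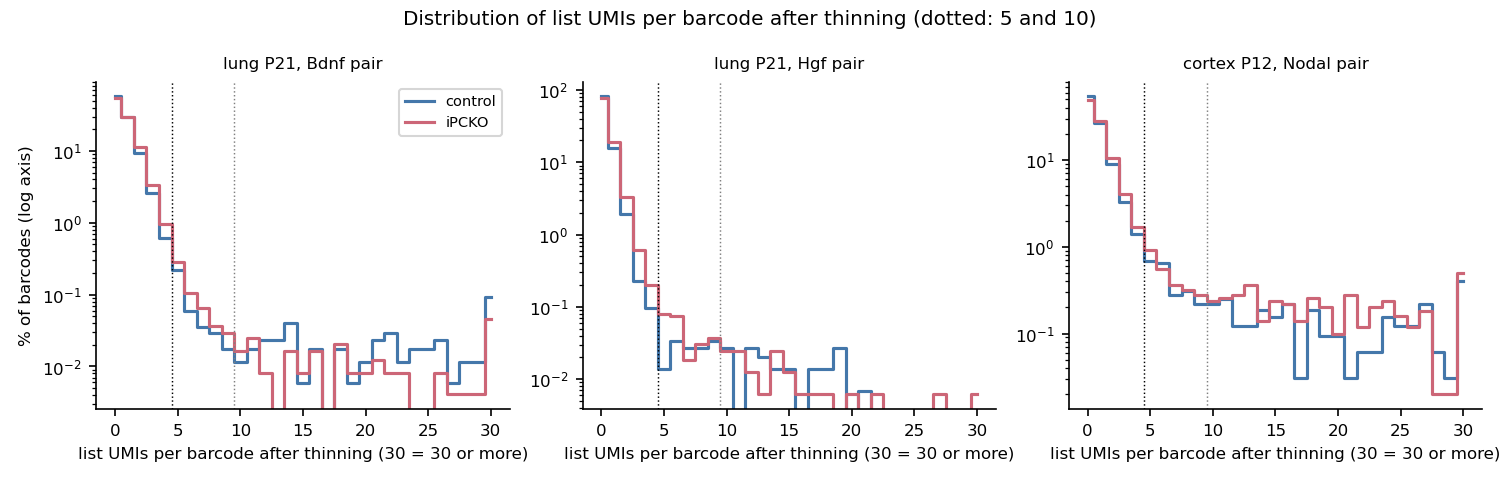
Percent of barcodes (log axis) by the number of list UMIs left after thinning to 1500 UMIs (Hgf pair: 700), blue control and red iPCKO; the last step holds 30 or more, and dotted lines mark 5 and 10 UMIs. Nodal cortex has the heaviest tail, with 95 and 214 barcodes at 10 or more, and in the Bdnf lungs the control line lies above the iPCKO line in the tail (72 and 54 barcodes).

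Each member was then read in barcodes that were list-rich by the other 44 members, so that a gene did not choose its own cells. All 45 members were more than 2-fold higher in list-rich than in other barcodes in each of the 6 libraries. Among all genes with at least 20 UMIs in every library, 2.74% (468 of 17074) were. The median log2 difference was 3.72 for S phase members and 6.5 for mitosis members. Mki67, the Ki-67 antigen of mitotic chromosomes, differed most, with a median of 8.16 and a range of 6.2 to 9.65. Hmmr, a spindle protein, and Aurkb, the kinase of the chromosomal passenger complex, followed with 7.89 and 7.88. Pcna had the smallest difference, with 2.33 (1.67 to 3.2), and among mitosis members Smc4 stood apart with 2.97 (2.41 to 3.63). Of the S phase genes, Uhrf1 (6.23), Tk1 (6.12) and Rrm2 (5.98) were as far apart as mitosis genes, whereas Mcm4 (2.89), Mcm7 (2.98) and Mcm6 (3.18) were near Pcna.

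**Figure D3:**
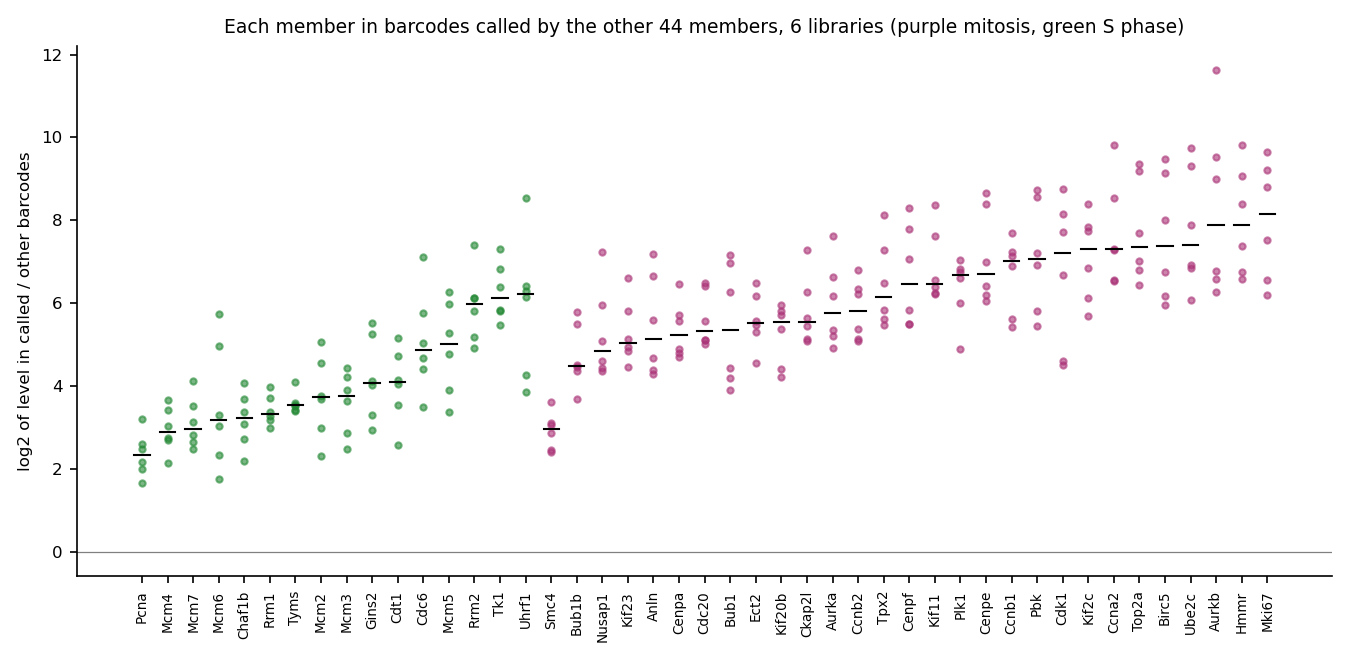
Log2 of the level of each member in barcodes called list-rich by the other 44 members over its level in the other barcodes; each point is 1 of 6 libraries, black bars are medians, green S phase and purple mitosis. Every point lies above 1, the lowest medians are those of Pcna (2.33), Mcm4 (2.89) and Smc4 (2.97), and the highest is that of Mki67 (8.16).

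Genes outside the list were read the same way. Of 28 other replication genes, 27 were more than 2-fold higher in all 6 libraries, with a median log2 difference of 3.37. Of 33 other mitosis genes 32 were, with a median of 5.60. Of 12 G1 cyclins and brakes of the cycle only Cdkn2c and Rbl1 were, with medians of 3.48 and 2.85, and Ccnd1 (-1.95 to 0.90), Ccnd2 (-0.16 to 0.99), Cdkn1a (-1.83 to 0.81) and Cdkn1b (-1.32 to 0.32) went both ways among libraries. Cdkn1c, which codes for the CDK inhibitor p57, Gas1 and Btg2 were lower in list-rich barcodes in every library, with medians of -1.34, -1.27 and -0.65. These were 3 of the 12, against 15.2% of all genes, and Cdkn1c and Gas1 each had only 1 UMI in the list-rich barcodes of at least 1 library. Barcodes of all lineages were pooled in these readings, and list-rich barcodes differed from the others in lineage. In the Hgf libraries immune-like cells were 63.6 and 46.0% of list-rich barcodes but 0.752 and 0.687% of all barcodes. How far lineage enters these differences was not tested. Among the genes most like the list, of 1607 with at least 50 UMIs in the list-rich barcodes of each library, were Ncapg (8.17), Esco2 (8.10), Nuf2 (7.70), Cdca8 (7.20), Cdca3 (7.18), Aspm (6.92), E2f8 (6.80), Kif20a (6.65) and Pclaf (6.55), by the median log2 difference over 6 libraries.

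The list was spread unevenly over lineages. In the lungs, which had been depleted of blood cells, the few immune-like cells left had high levels: 59 and 37 cells with 4025 and 4567 CPM in the Bdnf lungs, and 110 and 111 cells with 7374 and 6080 CPM in the Hgf lungs. They held 7 and 8 of the list-rich barcodes in the Bdnf pair but 28 and 29 in the Hgf pair, which was 63.6 and 46.0% of all list-rich barcodes there. Mpo, the peroxidase of immature neutrophils and monocytes, was among the genes that led the list-rich immune-like cells of both Bdnf libraries and of Hgf iPCKO. In those of Hgf control Mpo was found in 9 of 28 cells and Ighm, the immunoglobulin heavy chain of B cells, in 19. A further 5 and 6 (Bdnf) and 6 and 22 (Hgf) list-rich barcodes had a best lineage score below 0.1, and all barcodes with such weak markers had higher list levels still, 5296 and 5843 CPM (Bdnf) and 8564 and 8099 CPM (Hgf). Genes of red cell precursors led these list-rich barcodes, such as Car1, which was among the leading genes in all 4 lung libraries, and 15 of the 22 had a second lineage near the first.

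Among the structural cells of the Bdnf control lung, list-rich barcodes were 54 of 4684 endothelial-like (1.15%, 0.867 to 1.5%), 33 of 7121 AT2-like (0.463%), 14 of 1664 AT1-like (0.841%), 10 of 823 airway-like (1.22%) and 10 of 2286 fibroblast-like cells (0.437%). These counts are of 1 random thinning. Averaged over all draws they were 53.4, 33.5, 7.71, 11.5 and 7.51 in the same order, so the AT1-like count was well above its average. No mural-like cell of 454 was list-rich, which allows a share of up to 0.661%. At 10 or more UMIs, endothelial-like cells kept 33, AT2-like cells 17, airway-like cells 8 and AT1-like cells 0. AT1-like cells, the flat cells of gas exchange, had a median of only 11 list UMIs in their list-rich barcodes, and 284.6 of their 328 CPM of mitosis genes came from Smc4 alone. In the Nodal control cortex the shares were 53 of 835 endothelial-like (6.35%), 59 of 899 microglia-like (6.56%), 24 of 406 mural-like (5.91%) and 7 of 788 astrocyte-like cells (0.888%).

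**Figure D4:**
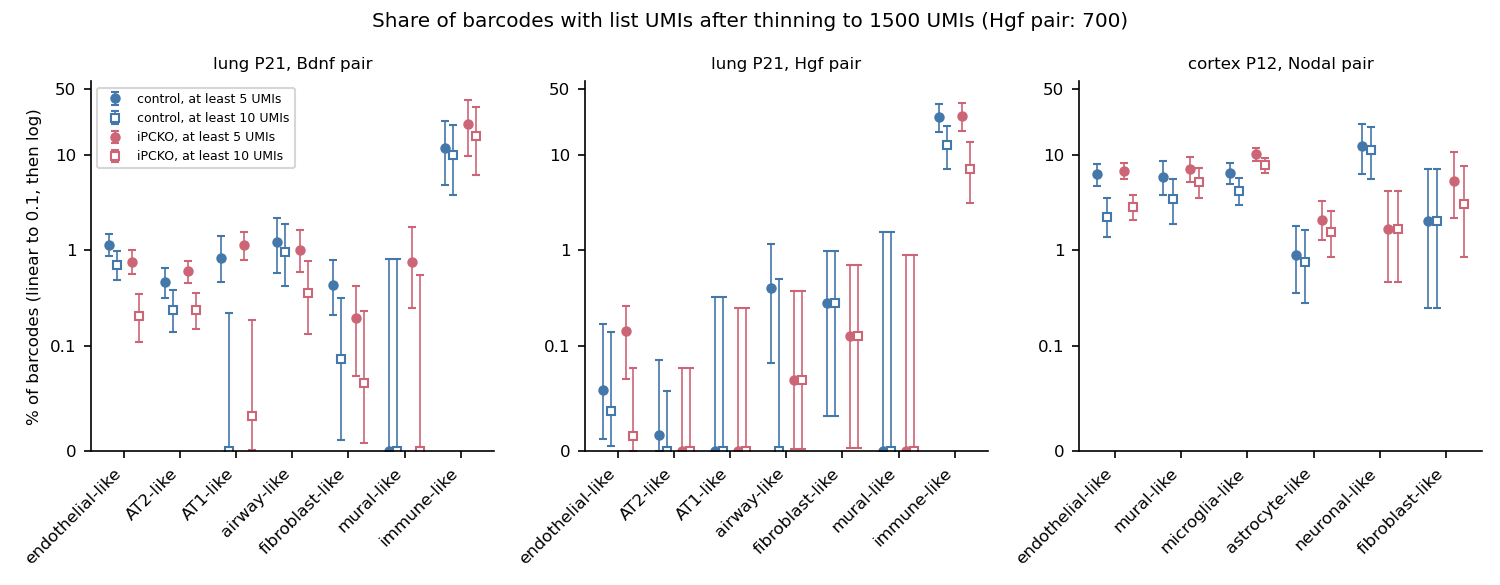
Percent of barcodes with at least 5 (filled circles) and at least 10 (open squares) list UMIs after thinning, by lineage, blue control and red iPCKO, on an axis that is linear to 0.1% and logarithmic above; bars are Clopper-Pearson 95% intervals. Endothelial-like cells of the Bdnf lungs were at 1.15 and 0.766% at 5 UMIs and at 0.705 and 0.203% at 10 UMIs, and microglia-like cells of the Nodal cortex were at 6.56 and 10.3% at 5 UMIs.

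Endothelial-like cells of the Bdnf iPCKO lung had lower levels of mitosis genes than those of its control, while the summed level of S phase genes was nearly the same. Within that sum 8 of 16 S phase members had intervals below 0, against 21.6% of all genes, and Pcna, the most abundant, had its interval above 0 (17.5% of all genes). The mitosis members summed to 490 (481 to 499) CPM in control and 313 (307 to 320) CPM in iPCKO, a log2 ratio of -0.65 (-0.68 to -0.61). The S phase members summed to 290 and 287 CPM (-0.01, -0.06 to 0.03). In barcodes under 200 UMIs, mitosis members were at 260 and 274 CPM, the higher value in iPCKO. List-rich barcodes were 54 of 4684 (1.15%) and 49 of 6401 (0.766%), a log2 ratio of -0.59 (-1.15 to -0.04), and at 10 or more UMIs they were 33 and 13 (-1.79, -2.72 to -0.87). The direction of the share turned at 2 other settings, to 0.106 with a minimum of 3000 UMIs and to 0.199 at 3 or more list UMIs, and with S phase members alone it was -1.67. Averaged over all draws of the thinning it was -0.53 (-1.08 to 0.02). The list-rich cells held a median of 87.5 list UMIs of 6646 UMIs in control and 10.0 of 3935 in iPCKO, and carried 54.0 and 19.5% of the mitosis UMIs of the lineage. The share thus counted list-rich cells of unlike level in the 2 libraries. Outside list-rich barcodes, mitosis genes were at 230 and 255 CPM.

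By member, 19 of 29 mitosis genes and 2 of 16 S phase genes were more than 2-fold lower in iPCKO endothelial-like cells and none was more than 2-fold higher. Here and below a gene is counted if the libraries of the pair together held 20 or more of its UMIs. Of all 20175 such genes, 2.47% were more than 2-fold lower and 2.78% higher. The median log2 ratio was -1.27 for mitosis members and -0.16 for S phase members. Top2a, the topoisomerase that untangles chromosomes, was at 42.0 and 10.5 CPM, or 1078 and 307 UMIs (-2.00, -2.18 to -1.81). Mki67 was at 30.3 and 7.2 CPM (-2.07, -2.30 to -1.85). Ccna2, cyclin A2, was at 16.7 and 4.1 CPM (-2.01), Ube2c, which feeds ubiquitin to the anaphase-promoting complex, at 21.1 and 5.9 CPM (-1.84), and Hmmr at 8.4 and 1.6 CPM (-2.39).

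Other abundant mitosis members differed less. Smc4 was close, at 190.1 and 191.9 CPM (0.01, -0.04 to 0.07), Nusap1 was at 14.7 and 12.4 CPM (-0.25), the centromeric histone Cenpa at 14.8 and 11.7 CPM (-0.33), and Ccnb1 had a ratio of -0.13. Of the S phase genes with the most UMIs, Mcm6 was at 32.4 and 29.9 CPM (-0.12), Rrm1 at 23.1 and 20.5 CPM (-0.17) and Mcm4 at 21.2 and 17.5 CPM (-0.28). Pcna was the only member with an interval above 0, at 136.6 and 157.7 CPM (0.21, 0.14 to 0.27). The 2 S phase members beyond 2-fold were Rrm2, the regulated subunit of ribonucleotide reductase, with -1.40, and Tk1, thymidine kinase, with -1.64. Both were also among the S phase genes closest to the mitosis genes in list-rich barcodes. When list-rich barcodes were left out in both libraries, 1 of 26 mitosis members with enough UMIs was more than 2-fold lower and 1 higher, against 2.14 and 3.02% of all genes in the same barcodes, with a median log2 ratio of 0.01. List-rich barcodes were called by these same members, so leaving them out removed the cells with the highest levels by construction.

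**Figure D5:**
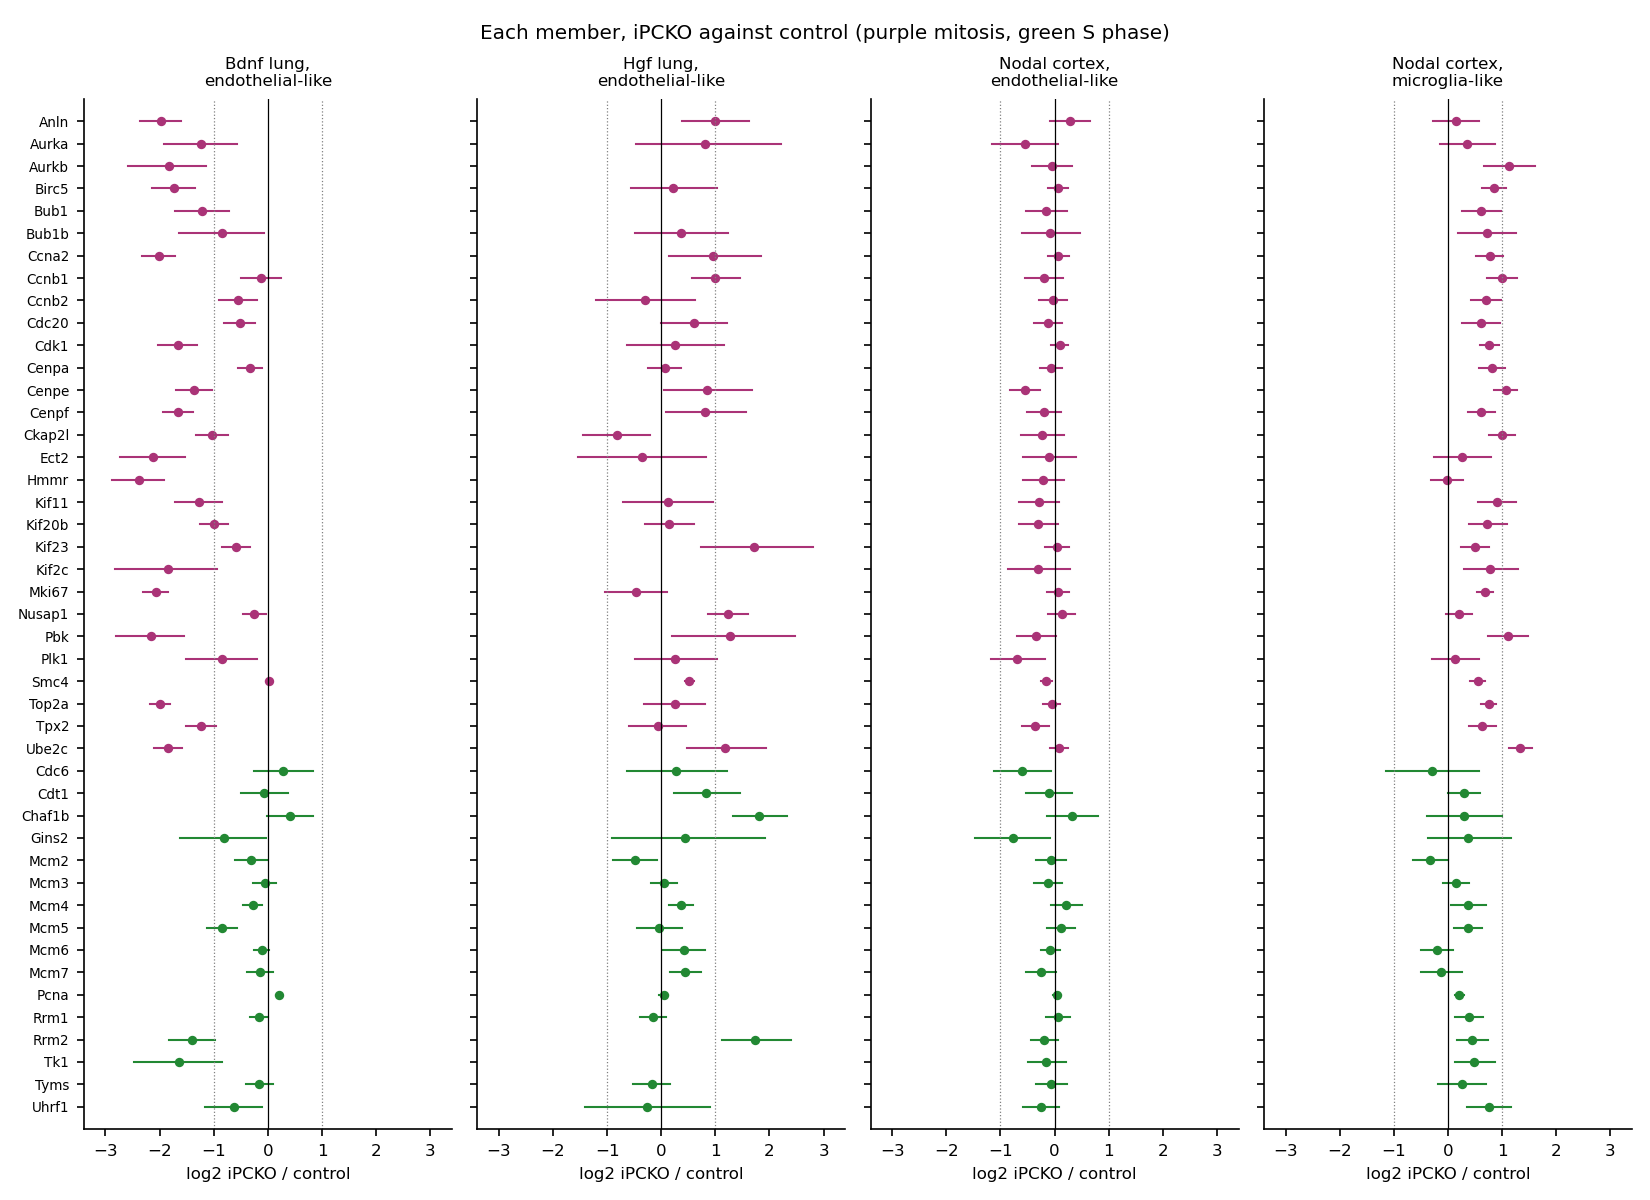
Log2 ratio of iPCKO over control for each member (purple mitosis, green S phase) with the conditional exact 95% interval of counting error, in endothelial-like cells of the Bdnf lungs, the Hgf lungs and the Nodal cortex and in microglia-like cells of the Nodal cortex. Members with under 20 UMIs have no point, and dotted lines mark 2-fold. Mitosis members lie left of 0 in the Bdnf endothelial-like cells (median -1.27), around 0 in the Nodal endothelial-like cells (-0.12), and right of 0 in the microglia-like cells (0.71).

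The difference was spread over endothelial subtypes unevenly. Venous-like cells had 805 (781 to 828) CPM of mitosis genes in control and 297 (284 to 310) CPM in iPCKO, with 13 of 772 and 4 of 1068 list-rich barcodes. General capillary-like (gCap) cells had 445 and 338 CPM, with 31 of 2449 and 28 of 3360, and arterial-like cells had 347 and 213 CPM, with 4 of 703 and 5 of 728. Aerocyte-like (aCap) cells went the other way, with 207 and 260 CPM and 1 of 629 and 7 of 1089 list-rich barcodes, and lymphatic-like cells had 677 CPM in both libraries. Of 33 other mitosis genes, 17 were more than 2-fold lower in iPCKO endothelial-like cells, as were 2 of 28 other replication genes and 1 of 12 G1 cyclins and brakes. Of all genes, 2.47% were. No gene of these lists was more than 2-fold higher, against 2.78% of all genes.

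In the other lineages of the Bdnf lungs the log2 ratio of the list was 0.10 in AT2-like, 0.20 in AT1-like, -0.05 in airway-like, 0.10 in fibroblast-like and 0.20 in mural-like cells, and -0.01 over all cells. In the 40 and 137 mesothelial-like cells it was -0.27 (-0.49 to -0.05). List-rich barcodes were 10 of 2286 and 6 of 3100 in fibroblast-like cells and 0 of 454 and 5 of 662 in mural-like cells. Averaged over all draws they were 7.51 and 8.88 (-0.20, -1.60 to 1.20) and 0.277 and 3.19. Of the 5 mural-like ones in iPCKO, 4 had a second lineage near the first (fibroblast in 2, AT1 and endothelial in 1 each). None of them had 10 or more list UMIs. No member was beyond 2-fold over all cells, against 1.74% of all genes lower and 2.41% higher. In AT2-like cells, which make surfactant, list-rich barcodes were 33 of 7121 and 56 of 9266, and at 10 or more UMIs 17 and 22. Of the list-rich barcodes 5 and 12 were mixed and 1 and 9 were Scrublet doublets, and the log2 ratio of the share was 0.38 with all barcodes, without mixed barcodes and without doublets, and 0.19 (-0.44 to 0.82) averaged over all draws. Pcna there was at 99.9 and 114.8 CPM and Smc4 at 115.2 and 130.9 CPM, while Aurkb (20 and 42 UMIs) was the 1 member beyond 2-fold, higher in iPCKO, against 3.73% of all genes higher and 1.39% lower. Intervals lay above 0 for 5 mitosis and 6 S phase members and below 0 for 7 mitosis members, against 25.5% of all genes above and 18.6% below. Among the 7 were Bub1 (13.1 and 7.7 CPM, -0.76), Mki67 (6.3 and 5.2 CPM) and Top2a (7.9 and 6.8 CPM). Without Pcna and Smc4 the AT2-like ratio was -0.01, and the fibroblast-like ratio changed sign as well. Airway-like cells had a mitosis ratio of -0.25 (-0.31 to -0.19) against 0.19 (0.12 to 0.26) for S phase. Their 10 and 17 list-rich barcodes held 50.3 and 34.3% of the mitosis UMIs, and outside them mitosis genes were at 152 and 169 CPM, the higher value in iPCKO. Cenpf, Cenpe, Kif2c and Bub1b were more than 2-fold lower there, 4 of 29 mitosis members against 1.27% of all genes, and no member was more than 2-fold higher (2.16%).

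In the thinner lineages of the Bdnf lungs single members passed 2-fold on few UMIs. In AT1-like cells Hmmr (17 and 3 UMIs) was lower, 1 of 36 members against 1.3% of all genes. Ccnb2 (7 and 34 UMIs), Aurka, Ckap2l and Cdc6 were higher, against 5.85%. In fibroblast-like cells Ccnb1 (35 and 12 UMIs) was lower, 1 of 42 against 1.61%, and Bub1b (7 and 19 UMIs) and Ckap2l (53 and 120 UMIs) were higher, against 3.65%. In mural-like cells, the class in which CreERT2 acts, 12 members could be counted: Tpx2, a spindle assembly factor, was lower (17 and 10 UMIs, against 5.29% of all genes) and none was higher (2.23%).

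The Hgf iPCKO library had more of the list than its control over all cells, 569 against 404 CPM (0.50, 0.47 to 0.52). Its barcodes under 200 UMIs had 516 against 362 CPM, a shift of like size. By member 6 of 45 were more than 2-fold higher over all cells, against 7.98% of all genes, and 1 was lower, against 6.7%. The lower one was Bub1, a kinase of the spindle checkpoint, with 8.8 and 2.3 CPM (-1.96), and Ect2 (3.2 and 2.2 CPM) had its interval below 0 as well. Intervals thus lay below 0 for 2 of 45 members, against 28.4% of all genes, and above 0 for 35, against 34.2%.

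AT2-like cells of the Hgf pair hardly held list-rich barcodes: 1 of 6441 in control and 0 of 4687 in iPCKO, which allows a share of up to 0.064%. Their summed level was still different, with 240 and 332 CPM (0.47, 0.42 to 0.52). The mitosis part was 99.0 (95.6 to 103) and 169 (163 to 175) CPM (0.77), and the S phase part 141 and 163 CPM (0.21). Barcodes under 200 UMIs had 191 and 301 CPM of mitosis genes and 170 and 215 CPM of S phase genes. In AT2-like cells Smc4 alone was at 64.3 and 134.7 CPM (1.07, 0.98 to 1.15), and without Pcna and Smc4 the ratio was 0.22. Of 37 members with enough UMIs, 11 were more than 2-fold higher and 4 lower, against 6.95 and 6.82% of all genes.

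Several members thus differed in AT2-like cells that were not list-rich, and not all one way. Bub1 was at 14.7 and 1.9 CPM, 472 and 35 UMIs (-2.98, -3.52 to -2.49), and Tk1 at 3.1 and 0.6 CPM (-2.30). Anln, which codes for anillin of the contractile ring, was at 0.7 and 4.9 CPM (2.90, 2.21 to 3.66). The chromatin assembly gene Chaf1b was at 7.5 and 13.7 CPM (0.88), and Pcna (70.4 and 75.3 CPM), Rrm1 (12.1 and 13.2 CPM), Mcm4 (10.3 and 10.9 CPM) and Tyms (9.7 and 9.5 CPM) were close. Ccnb2 (-1.12), Ect2 (-1.23) and Kif23 (-0.96) were also lower in iPCKO. Outside list-rich barcodes, Bub1 in AT2-like cells was at 12.3 and 7.1 CPM in the Bdnf pair and at 14.7 and 1.9 CPM in the Hgf pair.

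Endothelial-like cells of the Hgf lungs had few list-rich barcodes, 3 of 5199 and 10 of 7065, and at 10 or more UMIs 2 and 1. Of the 3 and 10, 2 and 3 had a second lineage near the first. It was lymphoid in the 2 of control, and myeloid in 2 and AT1 in 1 of iPCKO. The list level of endothelial-like cells was 420 and 519 CPM (0.31), with 179 and 252 CPM of mitosis genes (0.50, 0.43 to 0.57) and 241 and 267 CPM of S phase genes (0.15). Smc4 was at 113.1 and 162.2 CPM (0.52), Nusap1 at 5.9 and 13.8 CPM (1.23) and Ccnb1 at 4.1 and 8.3 CPM (1.0). Top2a and Mki67 had intervals that reached across 0. Of 40 members with enough UMIs 6 were more than 2-fold higher, against 6.88% of all genes, and none was lower (7.14%). Ckap2l (3.8 and 2.2 CPM) and the helicase subunit Mcm2 (7.3 and 5.2 CPM) had intervals below 0.

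Fibroblast-like cells of the Hgf pair differed in S phase genes, with 180 and 350 CPM (0.96, 0.79 to 1.13). Of the 11 S phase members with enough UMIs 7 were more than 2-fold higher, against 10.5% of all genes, for example Mcm7 (8.5 and 39.9 CPM, 26 and 67 UMIs), Rrm2 (4.9 and 23.2 CPM) and Mcm5. Top2a (12.4 and 3.0 CPM), Anln (11.1 and 4.2 CPM) and Ube2c (11.4 and 1.2 CPM) were lower, against 9.79% of all genes, and as many mitosis members, Nusap1 (5.9 and 18.3 CPM), Birc5 (12 and 14 UMIs) and Kif20b (10 and 11 UMIs), were more than 2-fold higher. The median ratio of the 12 mitosis members counted was 0.67. Only 2 of 722 and 1 of 794 fibroblast-like cells were list-rich. They held 54.4 and 25.4% of the mitosis UMIs and 7.13 and 19.7% of the S phase UMIs of the lineage. Outside them mitosis genes were at 73.3 and 144 CPM and S phase genes at 168 and 284 CPM. The median score of the fibroblast markers in these cells was 0.548 and 0.283. In airway-like cells 12 of 38 members were more than 2-fold lower, against 6.09% of all genes, including Cdk1 (11.3 and 3.7 CPM), Kif23 (14.7 and 6.3 CPM), Mcm2, Mcm3 and Mcm5, while Ccnb1 (11 and 44 UMIs) and Kif2c (5 and 21 UMIs) were higher, against 5.23%. There 3 list-rich cells held 30.4% of the mitosis UMIs in control and 1 held 2.84% in iPCKO, and outside them mitosis genes were at 133 and 163 CPM, the higher value in iPCKO. By class, mitosis genes were at 226 and 138 CPM in club-like and at 165 and 196 CPM in ciliated-like cells, and goblet-like cells numbered 28 and 1. In AT1-like cells Ect2 (35 and 12 UMIs) and Mcm2 (30 and 12 UMIs) were lower, 2 of 17 members against 6.05% of all genes. Anln (1 and 29 UMIs), Cenpf and Chaf1b were higher there, against 8.06%. Anln and Chaf1b were thus higher in both alveolar epithelial classes of the Hgf iPCKO lung, but not in these classes alone. In endothelial-like cells outside list-rich barcodes, Anln was at 1.90 and 4.41 CPM (1.25) and Chaf1b at 2.91 and 9.99 CPM (1.77). In mural-like cells 5 members could be counted and none was beyond 2-fold (6.55% of all genes lower, 7.51% higher).

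Immune-like cells of the Hgf lungs had list-rich shares of 25.5 and 26.1%, a mitosis ratio of -0.43 and an S phase ratio of 0.05, with Top2a at 749 and 454 CPM and Mki67 at 530 and 326 CPM. At 10 or more UMIs the shares were 14 of 110 (12.7%) and 8 of 111 (7.21%), a log2 ratio of -0.82 (-2.01 to 0.37). Hmmr (123.1 and 56.5 CPM) was the 1 member more than 2-fold lower, against 10.2% of all genes, and Tk1 (37.5 and 93.8 CPM) the 1 more than 2-fold higher, against 6.13%. Outside list-rich barcodes their mitosis genes were at 720 and 2438 CPM.

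The 2 control lungs, both lox/lox mice of postnatal day 21 without CreERT2, show how far single libraries lie apart. In endothelial-like cells mitosis genes were at 490 CPM in the Bdnf control and 179 CPM in the Hgf control, a log2 ratio of -1.45 (-1.52 to -1.39), which is larger than either difference between iPCKO and control. At a common depth of 700 UMIs, 30 of 4684 and 3 of 5199 endothelial-like cells were list-rich. The list ratio was -0.75 in AT2-like, -0.57 in AT1-like and -0.36 over all cells. The immune-like cells went the other way, with a mitosis ratio of 1.01. Allele, litter, preparation, depth and the minimum for a cell cannot be told apart in these values.

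In the Nodal cortex endothelial-like cells of both libraries had nearly the same levels. The list was at 1188 and 1148 CPM (-0.05, -0.08 to -0.02), with 706 and 672 CPM of mitosis and 482 and 477 CPM of S phase genes. List-rich barcodes were 53 of 835 (6.35%) and 105 of 1518 (6.92%), a log2 ratio of 0.12 (-0.34 to 0.58), and at 10 or more UMIs 19 and 44. No member was beyond 2-fold, against 2.12% of all genes lower and 1.97% higher. Smc4 was at 129.6 and 116.7 CPM (-0.15), Cdk1 at 57.3 and 61.1 CPM (0.09), Top2a at 56.7 and 54.7 CPM (-0.05) and Ube2c at 46.1 and 48.6 CPM (0.08). Pcna (227.6 and 234.5 CPM), Mcm6 (44 and 41.7 CPM), Rrm1 (27.1 and 28.2 CPM) and Rrm2 (24.6 and 21.6 CPM) were as close.

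Microglia-like cells, the resident macrophages of the brain, had higher levels in the Nodal iPCKO cortex. The list was at 1488 and 2183 CPM (0.55, 0.52 to 0.59), with 915 (891 to 940) and 1514 (1490 to 1538) CPM of mitosis genes (0.73) and 572 and 669 CPM of S phase genes (0.22). List-rich barcodes were 59 of 899 (6.56%, 5.03 to 8.38%) and 151 of 1464 (10.3%, 8.80 to 12%), a log2 ratio of 0.65 (0.23 to 1.07). At 10 or more UMIs they were 38 and 115 (0.89, 0.38 to 1.41). They carried 84.5 and 89.0% of the mitosis UMIs of the lineage, and outside them mitosis genes were at 154 and 195 CPM. Barcodes under 200 UMIs had 814 and 908 CPM of mitosis genes.

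The direction was shared by most members: 31 of 45 intervals lay above 0, 23 of mitosis and 8 of S phase members, against 13.7% of all genes, and none lay below (19.2%). Only 4 members were more than 2-fold higher, against 3.04% of all genes, and none was lower (2.99%). They were Ube2c (38.7 and 97.6 CPM, 1.33, 1.12 to 1.55), Aurkb (8.6 and 18.7 CPM), Pbk (13.8 and 29.7 CPM) and the kinesin Cenpe (39.6 and 82.8 CPM). Top2a was at 99.3 and 167.0 CPM (0.75), Smc4 at 100.8 and 147.4 CPM (0.55), Mki67 at 87.4 and 139.7 CPM (0.68) and Cdk1 at 62.0 and 105.2 CPM (0.76). S phase genes differed less, with Pcna at 285.0 and 329.7 CPM (0.21), Mcm3 at 39.1 and 43.3 CPM (0.15), Rrm1 at 31.6 and 41.5 CPM (0.39) and Mcm5 at 30.0 and 38.7 CPM (0.37). Of 33 other mitosis genes 5 were more than 2-fold higher and none lower, and of 28 other replication genes none was beyond 2-fold.

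Mural-like cells of the cortex, which hold the pericytes that lost Nodal, had 962 and 1164 CPM of mitosis genes (0.27, 0.21 to 0.34) and 591 and 600 CPM of S phase genes (0.02). The 2 classes within it went opposite ways, with 889 and 1270 CPM of mitosis genes in pericyte-like and 1187 and 720 CPM in smooth muscle-like cells, of which 3 of 75 and 3 of 96 were list-rich. Outside list-rich barcodes mitosis genes of mural-like cells were at 184 and 171 CPM. List-rich barcodes were 24 of 406 (5.91%) and 42 of 577 (7.28%), a log2 ratio of 0.30 (-0.40 to 1.0). Ccna2 was at 54.9 and 76.9 CPM (0.48), Cdk1 at 53.9 and 72.9 CPM (0.44), Mki67 at 58.1 and 73.2 CPM (0.33) and Top2a at 110.9 and 106.0 CPM (-0.07). Intervals lay above 0 for 14 of 45 members, against 7.79% of all genes, and below 0 for 3, against 8.53%. The 3 were Nusap1 (44 and 29.2 CPM), Mcm2 (25.7 and 15.6 CPM) and Mcm3 (27.5 and 18.6 CPM). Cdc6 (14 and 9 UMIs) was the 1 member more than 2-fold lower, against 2.17% of all genes, and none was counted as more than 2-fold higher (1.46%).

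Astrocyte-like cells had 138 and 346 CPM of mitosis genes (1.33, 1.23 to 1.43) and 168 and 202 CPM of S phase genes (0.27). By member 22 of 29 mitosis genes and no S phase gene were more than 2-fold higher, against 2.21% of all genes, and none was lower (1.79%). Top2a was at 7.3 and 34.8 CPM (2.26), Ube2c at 2.3 and 17.0 CPM (2.86) and Ccna2 at 5.5 and 18.9 CPM (1.80). This difference rested on few cells: 7 of 788 and 19 of 899 were list-rich, and outside them mitosis genes were at 92.5 and 97.1 CPM. Of the 19, 8 had a second lineage near the first (oligodendrocyte precursor in 3, microglia and neuroblast in 2 each, fibroblast in 1), against 1 of the 7. Without such barcodes in either library the list ratio was 0.48 instead of 0.84.

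Neuronal-like cells went the other way, with 1020 and 237 CPM of mitosis genes (-2.11) and 506 and 186 CPM of S phase genes (-1.45). List-rich barcodes were 11 of 88 and 4 of 237, and every one scored as neuroblast. Neuroblast-like cells were 23 (26.1% of neuronal-like cells) in control and 16 (6.75%) in iPCKO, and within them mitosis genes were at 7563 and 8867 CPM. Neurons had 77.4 and 60.1 CPM, with 0 of 65 and 0 of 221 list-rich. By member 27 of 27 mitosis genes and 13 of 15 S phase genes with enough UMIs were more than 2-fold lower, against 6.86% of all genes, and none was higher (2.15%). Top2a was at 149.9 and 30.1 CPM and Rrm2 at 77.1 and 13.4 CPM. Over all cells of the cortex no member was beyond 2-fold, against 2.31% of all genes lower and 3.0% higher.

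Fibroblast-like cells of the cortex were few, 98 and 129, with 2 and 7 list-rich. Their mitosis genes were at 414 and 500 CPM (0.27) and their S phase genes at 380 and 402 CPM (0.08). Rrm2 (42 and 24 UMIs) was more than 2-fold lower, 1 of 33 members against 2.7% of all genes. Ccnb1 (8 and 20 UMIs), Kif11 (9 and 23 UMIs), Ube2c (19 and 51 UMIs) and Mcm3 (5 and 30 UMIs) were more than 2-fold higher, against 2.72%.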

How the data were processed

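The 6 BD Rhapsody whole transcriptome libraries were 1 per group, each of 2 pooled mice. The deposited matrices hold estimated counts of UMIs per gene and barcode, which the authors made with STARsolo (STAR 2.7.10a) on GRCm39, sharing multi-mapping reads by expectation maximisation and with no filter on cells. Fractional values were summed as deposited. These are 3′ counts, so levels were not ranked between genes. Members, marker lists and other gene lists were chosen with earlier results of these data known.

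Barcodes with at least 1500 UMIs (Hgf libraries 700) were kept. Each took the class of the highest mean scaled marker level among 12 lung or 13 cortex classes. Scores below 0.1 were left as weak markers. Doublets were kept in the main values, and Scrublet (scanpy 1.11.5, expected rate 0.1) and Leiden clusters (resolution 2) served as alternatives. Scrublet marked 6.37 and 12.8% (Bdnf), 4.10 and 2.86% (Hgf), and 0.772 and 1.06% (Nodal) of barcodes. Levels are UMIs per 1000000 UMIs of the same cells with exact Poisson intervals, ratios have conditional exact intervals with an offset of 0.5 UMIs for counts beyond 2-fold, shares have Clopper-Pearson intervals, and share ratios have log-normal (Katz) intervals. A share of 0 allows up to 3 counts of the total. All intervals are at 95% and cover counting error only. Statistics were computed with scipy 1.17.1 and were tested on simulated counts.

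In each comparison the 4 mitosis and 4 S phase members with the most UMIs were eligible to be named, as was every member whose interval lay on the other side of 0 from the list. Further members named for being beyond 2-fold, or in lineages treated briefly, were chosen after their values were seen. A gene that the rule on likeness names is not reported here.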

Additional observations from a re-analysis of the deposited data

Results flagged for a closer look

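The mitosis members of endothelial-like cells had a log2 ratio of iPCKO over control of -0.65 in the Bdnf lungs and 0.50 in the Hgf lungs, opposite directions in the same tissue and at the same age. The controls lay further apart than the iPCKO libraries. These members were at 490 CPM in Bdnf control and 179 CPM in Hgf control, and at 313 CPM in Bdnf iPCKO and 252 CPM in Hgf iPCKO. The S phase members of airway-like cells had 0.19 in the Bdnf lungs and -0.20 in the Hgf lungs. Each group was 1 library, and neither difference was tested.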

How the results depend on the processing

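No paired analysis was possible because each group is 1 library. All values here are log2 ratios of iPCKO over control. Settings without Pcna and Smc4, the limit of 10 thinned UMIs, other weak-marker limits, minimum 3000 with thinning to 1500 and averaged draws were chosen after seeing the data.
Over the main comparisons 154 alternative values lay within the counting interval of the main value (counts of genes: within 1.5 times), 43 lay outside it, and 2 ratios whose main interval excluded 0 changed sign. Those 2 were shares of Bdnf endothelial-like cells, 0.106 at a minimum of 3000 UMIs and 0.199 at 3 or more UMIs, both of which by construction call cells at a lower list level (1667 and 2000 against 3333 CPM). With the same minimum but thinning to 1500 UMIs it was -0.641 (-1.31 to 0.03). That share was -1.67 with S phase members, -1.27 without Pcna and Smc4 and -1.79 at 10 UMIs. Its level was -0.65 with mitosis members, -0.0121 with S phase members and -0.85 without Pcna and Smc4.
Ratios whose main interval held 0 changed sign more often, among them shares over all Bdnf cells (main -0.0614), over all Hgf cells (0.374) and in Nodal endothelial-like cells (0.124), with values below. Over all Bdnf cells the level was -0.0523 without mixed barcodes, -0.12 and 0.11 with mitosis and S phase members and -0.19 without Pcna and Smc4. The share was 0.384 at a minimum of 3000 UMIs, -0.382 with mitosis members, -0.617 without Pcna and Smc4, 0.322 at 3 UMIs, and at 10 UMIs -0.537 unthinned and -0.918 thinned.
Over all Hgf cells the level was 0.43 without mixed barcodes, 0.58 and 0.40 with mitosis and S phase members and 0.44 on a median-of-ratios scale, and the share was -0.796 with S phase members and 0.948 at 3 UMIs. In Hgf AT2-like cells the level was 0.40 with Leiden clusters, 0.77 and 0.21 with mitosis and S phase members, 0.42 at a weak-marker limit of 0 and 0.22 without Pcna and Smc4, and its share ratio gave no value because no iPCKO cell was list-rich.
Over all Nodal cells the level was 0.18 without mixed barcodes, 0.24 and 0.00234 with mitosis and S phase members, 0.17 without Pcna and Smc4 and 0.19 on the median-of-ratios scale, and the share was 0.127 with S phase members. In Nodal endothelial-like cells the share was -0.360 with S phase members and the level -0.00128 on the median-of-ratios scale. In microglia-like cells the level was 0.44 with Leiden clusters, 0.73 and 0.22 with mitosis and S phase members, 0.63 without Pcna and Smc4 and 0.62 on the median-of-ratios scale.
With a minimum of 100 in place of 20 UMIs, genes over 2-fold lower numbered 179 instead of 498 in Bdnf endothelial-like, 695 instead of 1229 in Hgf AT2-like and 76 instead of 435 in Nodal microglia-like cells. In the other lineages 145 values lay within the main interval, 32 lay outside it, and 3 whose main interval excluded 0 changed sign: without Pcna and Smc4 the level was -0.00999 in Bdnf AT2-like and -0.00268 in Bdnf fibroblast-like cells, and with S phase members it was 0.0483 in Hgf immune-like cells. The cause of these shifts was not tested. With few list-rich cells, the Hgf shares rest on the fewest counts, and leaving out a replicate was not possible with 1 library a group.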
